A study of Mus musculus with 42 samples.

Results

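The genes described here are 10 components of the microtubule system of dividing and differentiating cells: the α-tubulins Tuba1a, Tuba1b and Tuba1c, the β-tubulins Tubb2a, Tubb2b, Tubb3, Tubb5 and Tubb6, the γ-tubulin Tubg1 and stathmin, Stmn1. They were chosen by name, from the gene symbols of the array annotation, with earlier results of these data known. Of the 10, 8 were measured, out of 18194 genes on the array. Tuba1b and Tuba1c were listed only on probe sets that carry several gene symbols, so that neither has a value here. Where several probe sets with a single symbol measured a gene, the highest signal in the cell was taken, and the gene was called present (the cell positive) from 1000 upward.

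The study profiled single cells of the retina of CD-1 mice, an outbred strain, with no allele, transgene or treatment, and 1 array was hybridized for each of 42 cells that the labels call retinal progenitor cells (RPCs). Embryonic day 12.5 (E12.5) gave 11 cells, E13.5 gave 4, E14.5 gave 2, E15.5 gave 1, E16.5 gave 11 and the day of birth (P0) gave 13. Of these cells 6 form the transitional class of the study, between an RPC and a neuron, and 36 are the other RPCs. The transitional cells are C5 at P0, then D5, E5 and F1, all at E16.5, and the single cells B1 at E14.5 and A6 at E13.5. The labels do not mark this class: its 6 cells were read from the marks in the study's display of its classification, and all values by class rest on that reading. Cells were picked at random from dissociated retinas and were classed afterwards from their own expression profiles. Whether a tubulin or stathmin was among the genes that set the classes is not given in the sources used here, so that all values by class are a description. No animal or litter is named for a cell, and cells are not replicates. Each stage was therefore 1 sample, no test between stages or classes was made, and the intervals below are exact (Clopper-Pearson) 95% intervals for shares and Newcombe intervals for differences of shares, which cover counting error only.

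Microtubules are polymers of dimers of 1 α-tubulin and 1 β-tubulin. In a dividing progenitor they build the spindle, and in a neuron they fill the axon and the dendrites. Mammals have several genes for each tubulin: Tubb5 is used in most tissues, whereas Tubb3, the class III isotype detected by the antibody TuJ1, is a common marker of young neurons. γ-Tubulin starts new microtubules at the centrosome, and stathmin binds free dimers and favors the shrinkage of microtubules.

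Between 1386 and 5253 genes (median 3034) were present per cell. Of 8 progenitor markers, a median of 4.5 was present in the 6 transitional cells (3 to 8) and of 6 in the 36 other RPCs (1 to 8). Ccnd1 and Pax6 were present in 41 cells each, but Rax in 15 and Hes1 in 8. By 30 points or more, 1 marker was in a larger share of the transitional cells, Rax (4 of 6 and 11 of 36). In a smaller share were 3: Sox2 and Lhx2 (2 of 6 and 32 of 36 each) and Fgf15 (3 of 6 and 29 of 36). Of all genes 5.71% were higher and 12.5% lower by as much. On 5 E16.5 arrays, those of J1, J2, J4, E8 and F1, the pattern of the 18 hybridization control probe sets was unlike that of the rest: the SD of their log2 deviations was 0.603 to 0.629, while no array of the 37 others passed 0.235. E16.5 values are given for all 11 cells and, where the difference is large, for the 6 with usual controls. A lower signal than 1000 is no proof that the transcript was missing, since each cDNA went through 35 cycles of PCR.

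The promoters of 6 of the 10 genes were in the RefSeq table for build GRCm38.p6. The 100 bases before the annotated start are shown for 3 broad isotypes with a value, Tuba1a, Tubb5 and Tubb2a, and for the neuronal isotype Tubb3, so that the regions in front of a gene found in every cell and of a gene found in some can be read side by side. Capitals mark every match on either strand to TATAA, to CCAAT, to GGGCGG (a GC box) or to CANNTG (an E box).
Tuba1a, minus strand, chr15:98953502-98953601: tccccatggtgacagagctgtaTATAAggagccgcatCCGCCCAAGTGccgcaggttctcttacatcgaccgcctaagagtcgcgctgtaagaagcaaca
Tubb5, minus strand, chr17:35838302-35838401: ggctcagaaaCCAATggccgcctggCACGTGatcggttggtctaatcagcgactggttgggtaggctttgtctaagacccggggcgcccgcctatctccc
Tubb2a, minus strand, chr13:34078009-34078108: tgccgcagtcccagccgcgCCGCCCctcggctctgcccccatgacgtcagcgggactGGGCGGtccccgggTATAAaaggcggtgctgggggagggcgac
Tubb3, plus strand, chr8:123411453-123411552: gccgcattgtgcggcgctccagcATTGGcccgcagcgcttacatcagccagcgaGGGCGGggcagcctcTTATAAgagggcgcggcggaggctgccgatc

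TATAA was found in front of Tuba1a, Tubb2a and Tubb3, beginning 78, 29 and 30 bases before the start, and in Tubb3 it was also read on the other strand, 1 base away and overlapping it. Over the 32851 promoter windows of the table, cut to the same 100 bases, 10.2% held TATAA, 18.9% CCAAT, 24.7% GGGCGG and 34.4% CANNTG. The GC box was found in Tuba1a, Tubb2a (at 2 places) and Tubb3, CCAAT in Tubb5 and Tubb3, and the E box, whose pattern matches on both strands at once, in Tuba1a and Tubb5. In Tuba1a the GC box and the E box share 1 base. These are matches of letters and not binding sites.

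Tuba1a, Tubb5 and Stmn1 were present in all 42 cells (100%, 95% interval 91.6 to 100%). Among the 13200 genes present in at least 1 cell, 57 were present in all 42, which is 0.432%. Tubb2a, a class II β-tubulin, was present in 41 cells (97.6%, 87.4 to 99.9%), and its signal in the remaining cell, E13.5 A5, was 886. Then followed Tubb2b in 32 cells (76.2%, 60.5 to 87.9%), Tubb6 in 25 (59.5%, 43.3 to 74.4%), Tubb3 in 23 (54.8%, 38.7 to 70.2%) and Tubg1 in 22 (52.4%, 36.4 to 68.0%). The intervals of the last 3 genes overlapped almost wholly, so that no order between them can be read. The set therefore held 4 genes in nearly every cell and 4 in a part of the cells.

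**Figure D1:**
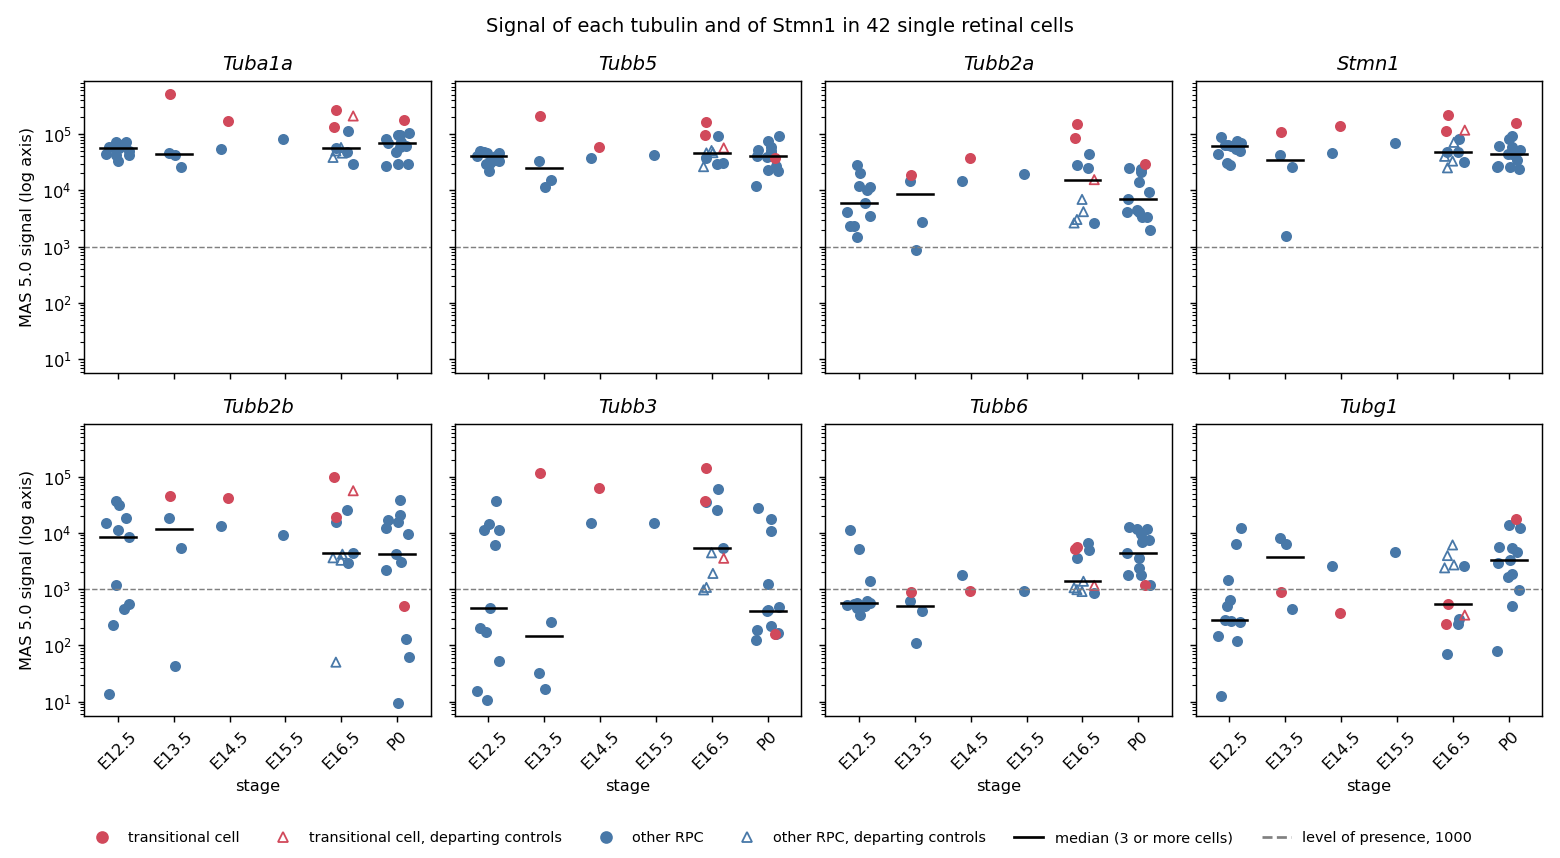
MAS 5.0 signal on a log axis (vertical) of the 8 measured genes in each of the 42 cells, by stage (horizontal). Red symbols are transitional cells, blue symbols other RPCs, open triangles the 5 E16.5 arrays with departing controls, black lines medians and the dashed line the level of presence. Tuba1a, Tubb5 and Stmn1 lie above 1000 in all 42 cells, whereas the Tubb3 signals of E12.5 form a group of 6 at 459 or less and a group of 5 at 6169 or more.

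Tuba1a, on chromosome 15, encodes an α-tubulin that is abundant in the developing brain. Its signal in the E12.5 cells was 32891 at the lowest, 55741 at the median and 72848 at the highest. The E13.5 cells A5, A6, A8 and B3 had 41741, 509591, 25616 and 45949. The E14.5 cells B1 and D7 had 169732 and 55025, and the E15.5 cell had 82714. At E16.5 the lowest, median and highest signals were 29985, 56145 and 265036, and at P0 27598, 68124 and 181196. With the 6 usual E16.5 arrays alone the median was 84402. The ranges of the stages overlapped. The 6 highest signals of all were those of the 6 transitional cells. The sole Tuba1a probe set is of the type that can match related transcripts, so that its signal may hold other α-tubulins.

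Tubb5, on chromosome 17, encodes the class I isotype of dividing cells. It had a lowest, median and highest signal of 22319, 40377 and 50934 at E12.5, of 26373, 46799 and 166088 at E16.5 (median 64529 on the 6 usual arrays) and of 12097, 40061 and 92124 at P0. The E13.5 cells A5, A6, A8 and B3 had 11654, 212934, 15204 and 33828. Between P0 and E12.5 the medians differed by a ratio of 0.992, the closest to 1 of the 8 genes, but by 1.86 after scaling to the hybridization controls, a scaling that moved the median ratio over all genes between these stages as well, to 2.55 from the 1.47 of the signals as deposited.

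Stmn1, on chromosome 4, had 28265, 61222 and 89266 at the lowest, median and highest at E12.5, 25140, 47473 and 221682 at E16.5 (median 64754 on the 6 usual arrays) and 23990, 44924 and 156882 at P0. The P0 over E12.5 ratio of its medians was 0.734 as deposited and 1.47 scaled to the controls, so that no direction can be read. E13.5 cell A5 stood apart with 1558, against 110483, 26207 and 41823 in A6, A8 and B3. In the same cell Tubb2a, Tubb2b (43), Tubb3 (17) and Tubb6 (109) were below 1000, so that Tubb5 (11654) was its only β-tubulin at that level, while Tubg1 (6434) was present. The cell had 2830 genes present, close to the median of all cells, and its Gapdh signal was 32428.

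Tubb2a varied more. Its signals spanned 170-fold over the 42 cells, against 19.9-fold for Tuba1a and 18.3-fold for Tubb5. The lowest, median and highest were 1463, 5939 and 28683 at E12.5, 2633, 15510 and 150851 at E16.5 and 2001, 7123 and 29241 at P0. At E16.5 the median was 36480 on the 6 arrays with usual controls and 4181 on the 5 with departing controls, and 1 of the 6, cell F4 (2635), lay as low as the lowest of the 5. A second Tubb2a probe set, which can match related transcripts, reached 1000 in 14 of the 41 positive cells.

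The percent of cells with Tubb2b, the other class II isotype, which neighbors Tubb2a on chromosome 13, was 63.6% at E12.5 (7 of 11), 90.9% at E16.5 (10 of 11) and 69.2% at P0 (9 of 13). It was also present in 3 of the 4 E13.5 cells, both E14.5 cells and the E15.5 cell. The 10 negative cells reached at most 545, with a median of 95.4, and the 32 positive cells had 1202 at the lowest (E12.5 E6) and a median of 14156. The ratio of medians between P0 and E12.5 was 0.500, but it lay between 0.808 and 0.878 when any 1 of 11 cells was left out (E12.5 A4, E3, E5, F2 or F8, or P0 A8, C5, E5, E6, H2 or H3).

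Tubb3, on chromosome 8, was present in 5 of the 11 E12.5 cells, 1 of the 4 E13.5 cells, 2 of the 2 E14.5 cells, the E15.5 cell, 10 of the 11 E16.5 cells and 4 of the 13 P0 cells. In the E12.5 cells the signals were 36944 in E5, 14220 in A4, 11253 in E1, 11182 in B1 and 6169 in G2. The other 6 cells had 459 (F2), 202 (B4), 170 (E6), 52.8 (D5), 15.2 (F8) and 10.6 (E3). There was no cell between 459 and 6169. At P0, B6 had 27933, C1 17634, C8 11025 and E6 1250, and the other 9 cells lay between 126 and 477.

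At E16.5 the Tubb3 signals followed the 2 sets of arrays. The 6 cells on arrays with usual controls had 143050 (E5), 60716 (E3), 36987 (D5), 35858 (D6), 25241 (F5) and 5458 (F4). The 5 cells on arrays with departing controls had 4431 (E8), 3547 (F1), 1906 (J1), 1075 (J2) and 971 (J4). The sets did not overlap. How many of all genes also separate these sets was not counted, so that the gap cannot be called particular to Tubb3. Whether the arrays had a part in the level was not tested. With usual controls alone, 6 of 6 cells were positive (54.1 to 100%).

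Between E16.5 and E12.5 the percent of cells with Tubb3 was higher by 45.5 points (Newcombe 95% interval 6.41 to 70.8), and with the usual arrays alone by 54.5 points (7.35 to 78.7). Of the genes tested between these stages, 3.08% were higher by 30 points or more at E16.5 and 3.13% lower, and of the 8 genes of the set Tubb3 and Tubb6 (45.5 points, 4.03 to 70.2) were higher and 0 lower. With the usual arrays alone Tubb2b (36.4 points, -8.05 to 64.6) joined them, 3 of 8, beside 4.41% of all genes higher and 11.8% lower. In median signal 3 of the 7 genes tested, Tubb2a, Tubb3 and Tubb6, were 2-fold or more higher at E16.5 and 0 lower, beside 24.9% and 40.4% of all genes. The calls of Tubb2a (2.61) and Tubb6 (2.44) did not hold throughout: Tubb2a was 1.08 scaled to the controls, where Tubb5 (2.33) passed in its place, and 0.934 without the transitional cells, and Tubb6 was 0.854 with quantile normalization. Between P0 and E16.5 the percent with Tubb3 was lower, by -60.1 points (-79.7 to -20.9), and no other gene of the set was lower by 30 points or more, beside 2.61% of all genes. Tubg1 was the 1 gene higher at P0 by that much (31.5 points, -6.52 to 59.9), beside 7.57% of all genes. Without the departing arrays the Tubb3 difference was -69.2 points (-87.3 to -21.8), and Tubb2b, at -30.8 points (-57.6 to 12.3), then also passed 30 points, beside 2.35% of all genes, while Tubg1 was higher by 60.3 points (12.2 to 80.5), beside 18.5%. Between P0 and E12.5 the difference of Tubb3 was -14.7 points (-46.8 to 21.5), an interval that holds 0. These differences share cells of the same 3 stages and do not stand for separate observations. The median Tubb3 signal was 11.9 times as high at E16.5 as at E12.5, where it was 459 and so below 1000. Single cells decided this ratio. It was as low as 1.65 with 1 of the 6 negative E12.5 cells left out (B4, D5, E3, E6, F2 or F8, each of which moved it by more than 1.5 times) and as high as 33.5 with 1 of 6 E16.5 cells left out (E8, F1, F4, J1, J2 or J4, likewise).

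Tubb6, which encodes the class V isotype and lies on chromosome 18, was present in 13 of 13 cells at P0 (75.3 to 100%) and in 3 of 11 at E12.5 (27.3%, 6.02 to 61.0%), a difference of 72.7 points (35.6 to 90.3). It was present in 0 of 4 cells at E13.5 (0 to 60.2%), 1 of 2 at E14.5 and 8 of 11 at E16.5, and not in the E15.5 cell (signal 941). P0 signals had a lowest, median and highest of 1170, 4336 and 12652. Those of E12.5 were 352, 566 and 11442. The ranges overlapped, through E12.5 cells B4 (11442), A4 (5225) and B1 (1422), but all 13 P0 cells lay above the E12.5 median, which is itself below 1000. The ratio of medians was 7.65, with 3.01 under quantile normalization, 3.18 with 1 fixed probe set and 12.8 scaled to the controls, and 42.9% of the genes tested were 2-fold or more higher at P0 in median signal, so that the fold is common while the difference in cells is less so: 8.58% of genes were higher by 30 points or more.

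Tubb6 signals lay close to the level of presence. With the level at 500 the P0 minus E12.5 difference was 18.2 points, since 90.5% of all cells were then positive, and at 5000 it was 28.0 points. The 2 probe sets of Tubb6 were positive in different cells, with 13 and 20 positive cells, 8 shared, and a Spearman correlation of 0.35 over the 42 cells. Both were found in more P0 than E12.5 cells, the one in 9 of 13 and 2 of 11 and the other in 10 of 13 and 2 of 11. At E16.5, 5 of the 6 cells with usual controls and 3 of the 5 with departing controls were positive, with medians of 5110 and 1061.

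Tubg1, on chromosome 11, was present in 10 of 13 cells at P0 (76.9%, 46.2 to 95%) and in 3 of 11 at E12.5 (27.3%, 6.02 to 61.0%), a difference of 49.7 points (9.69 to 72.7). P0 signals had a lowest, median and highest of 79.0, 3328 and 17945, and E12.5 signals of 12.4, 283 and 12030. The ratio of medians was 11.7, with 3.04 under quantile normalization, and 12 of the 13 P0 cells lay above the E12.5 median. That median is below 1000, where the study saw signals vary somewhat widely between replicate runs, so that the ratio is a rough size. P0 cells C8 (499) and E2 (959) lay above it without being positive. With the level of presence at 5000 the difference was 20.3 points. At E13.5 Tubg1 was present in 2 of 4 cells, at E14.5 in 1 of 2, in the E15.5 cell (4561) and at E16.5 in 5 of 11. Of the last 5 cells, 4 were on the 5 arrays with departing controls and 1 was among the 6 with usual controls, and the part of the arrays was not tested.

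Over the set, 2 of the 8 genes (Tubb6 and Tubg1) were thus higher by 30 points or more at P0 than at E12.5 and 0 lower, beside 8.58% and 2.76% of the 10019 genes tested. The other 6 genes differed by -14.7 to 5.59 points. P0 cells had a median of 3063 genes present and E12.5 cells one of 2800, and the part of this in the differences was not tested. Among the 7 genes with a median of 1000 or more in either stage 2 were 2-fold or more higher at P0 and 0 lower, beside 42.9% and 20.3% of all genes, and the median ratio was 1.20, against 1.47 over all genes tested.

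**Figure D2:**
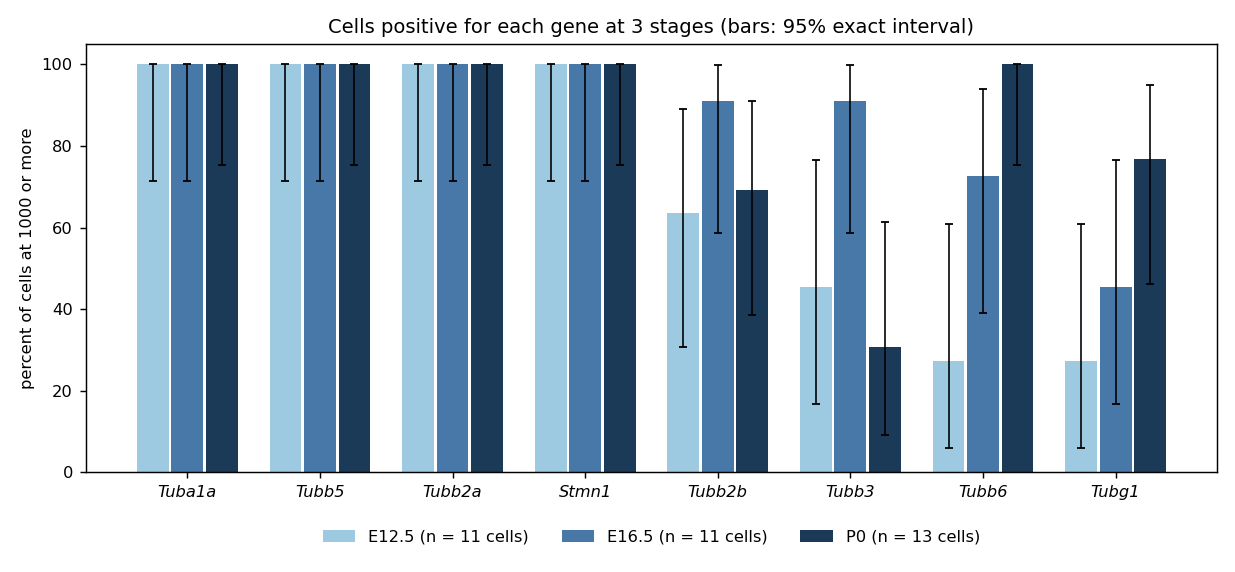
Percent of cells in which each gene was present (vertical axis), by gene (horizontal axis) at E12.5, E16.5 and P0. Bars are the observed percents and lines their exact 95% intervals. Tuba1a, Tubb5, Tubb2a and Stmn1 stand at 100% at all 3 stages, Tubb3 is highest at E16.5 (90.9%) and Tubb6 at P0 (100%).

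The broad isotypes were compared with the neuronal one in the same cells. All 23 cells with Tubb3 were also positive for Tuba1a, Tubb5, Tubb2a and Stmn1, which follows from the near universal presence of these genes. The other 19 cells (45.2%, 29.8 to 61.3%) had a broad isotype and no Tubb3. Since Tuba1a and Tubb5 were in every cell, these are simply the cells without Tubb3. They were 9 of 13 cells at P0 (69.2%, 38.6 to 90.9%), 1 of 11 at E16.5 (9.09%, 0.230 to 41.3%) and 6 of 11 at E12.5 (54.5%, 23.4 to 83.3%). Of the 6 E16.5 cells with usual controls 0 were among them. No cell had Tubb3 as its sole β-tubulin, which likewise follows from Tubb5 in every cell. Levels of different isotypes were not set against each other, because signals of different probe sets have no common scale.

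Of the 5 β-tubulins, all were present in 13 cells, 4 in 14 cells, 3 in 13 cells, 2 in 1 cell (E12.5 D5, with Tubb2a and Tubb5) and 1 in 1 cell (E13.5 A5). The full set was found in 7 of 11 cells at E16.5 (5 of the 6 with usual controls), 3 of 13 at P0 and 2 of 11 at E12.5. The combination of all but Tubb3 was found in 7 cells, 6 of them at P0, 1 at E16.5 (on an array with departing controls) and 0 at E12.5. The combination Tubb2a, Tubb2b and Tubb5 alone was found in 6 cells, 4 of them at E12.5 and none at E16.5 or P0. At the level of presence used the stages thus differed in which β-tubulins joined Tubb5, although most cells of every stage held 3 or more. Part of this follows from Tubb6: it was present in all 13 P0 cells, so that no set without it could occur there. In the 4 E12.5 cells named last its signals were 352 (F2), 472 (E6), 517 (F8) and 566 (E3). With the level at 500, 90.5% of all cells had Tubb6, and its P0 minus E12.5 difference was 18.2 points. The combinations were not counted at that level.

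**Figure D3:**
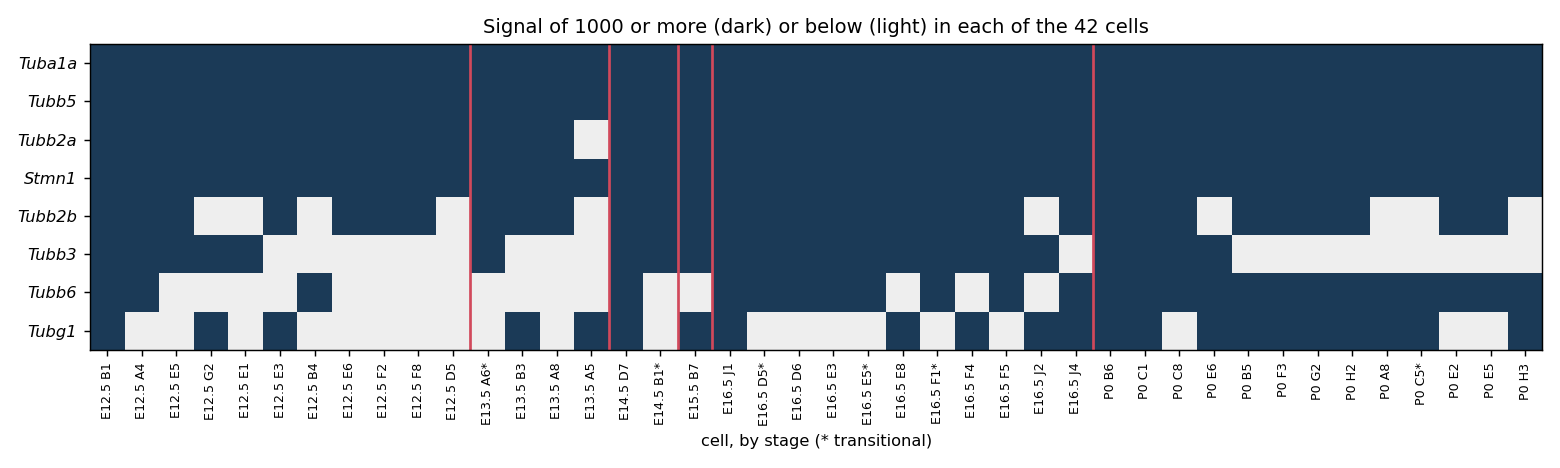
Presence of each gene (rows) in each of the 42 cells (columns), with stages divided by red lines and cells with Tubb3 placed first within a stage. Dark squares are signals of 1000 or more, light squares lower signals, and asterisks mark transitional cells. The Tubb6 row is dark in all 13 P0 cells, and the Tubb3 row in 4 of them.

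Tubb2b and Tubb3 shared 19 cells, 13 cells had Tubb2b alone and 4 had Tubb3 alone, so that 59.4% of Tubb2b cells had Tubb3 and 82.6% of Tubb3 cells had Tubb2b. Tubb6 and Tubb3 shared 14 cells, with 11 and 9 in a single gene. Tubg1 and Tubb3 shared 11 cells, and 11 and 12 cells had a single gene of the pair. Over the signals of the 42 cells the highest Spearman correlations within the set were those of Tuba1a with Tubb5 (0.82), Tuba1a with Stmn1 (0.80), Tubb5 with Stmn1 (0.75) and Tubb2a with Tubb2b (0.73). The values of a cell share 1 array and its scaling. Tuba1a, Stmn1 and Tubb5 also followed the level of the hybridization controls (0.67, 0.57 and 0.48), whereas Tubb3 did not (0.00). With every array brought to 1 control level the 4 correlations were 0.73, 0.79, 0.72 and 0.74. That scaling multiplies all genes of a cell by the same factor, which can itself make genes correlate. These values therefore cannot separate the array level from the genes, and its part was not tested.

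Among the 7684 genes present in 5 or more cells, those whose positive cells were most like the cells of Tubb3 were Rpf2, a factor of ribosome assembly, with a Jaccard index (cells with both over cells with either) of 0.73, Rpl38 with 0.64, Atp5d with 0.63, Cox6c with 0.62 and Maged2 with 0.62. Rpl38 and Cox6c were present in 36 and 37 cells, and a gene in all 42 cells has an index of 0.55 with Tubb3. Signals most like those of Stmn1 were those of Rpsa (Spearman 0.85), Rpl4 (0.81), Tuba1a (0.80), Actg1 (0.77) and Rps4x (0.76), so that Tuba1a was the third of all genes.

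The 6 transitional cells were then set beside the other 36 RPCs. The groups also differ in stage: 3 of the 6 and 8 of the 36 were from E16.5. The part of stage in the values by class was not tested. The median signal was 3.53 times as high for Tuba1a, 2.79 times for Stmn1, 5.26 times for Tubb2a, 9.12 times for Tubb2b and 48.9 times for Tubb3, and 1.99 times for Tubb5. The medians of Tubb6 (1169 and 1403) were close, and that of Tubg1 was lower (461 and 2118). Of the 8 genes 5 thus passed 2-fold upward and 1 downward, beside 21.1% and 56.7% of the 2503 genes tested, whose median ratio was 0.379. The Stmn1 call rests on a probe set of the type that can match related transcripts, which gave the value in 40 of the 42 cells, and its ratio was 1.81 on the other probe set.

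Tuba1a in the transitional cells was 509591 in E13.5 A6, 265036 in E16.5 E5, 209825 in E16.5 F1, 181196 in P0 C5, 169732 in E14.5 B1 and 131756 in E16.5 D5. In the other RPCs its lowest, median and highest were 25616, 55383 and 112659. Every transitional cell was thus above every other RPC. The same held for Stmn1, with 221682 in E5, 156882 in C5, 141095 in B1, 117633 in F1, 115643 in D5 and 110483 in A6, against 1558, 46401 and 90721 at the lowest, median and highest of the other RPCs. On the other Stmn1 probe set 3 of the 6 transitional cells, and not all, lay above the highest other RPC. Only 3 of the 2503 genes (0.12%) had all transitional cells above all others: these 2 and Rpsa, which encodes a protein of the small ribosomal subunit.

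Other values of the same arrays moved with these signals. The level of the hybridization controls had a median of 99627 among transitional cells (61169 to 311477) and of 47724 among other RPCs (13960 to 116682). The medians of Gapdh (118987 and 56098) and of Actb (94648 and 20634) were also higher, and fewer genes were present (medians 2353 and 3063). With every array scaled to 1 control level, the transitional over other ratio was 1.58 for Tuba1a, 1.31 for Stmn1, 2.32 for Tubb2a, 1.99 for Tubb2b, 20.3 for Tubb3, 0.714 for Tubb5, 0.380 for Tubb6 and 0.0795 for Tubg1, so that the Tubb5 direction did not hold on both scales. No gene of the set then had all transitional cells above all others, as was the case for 0 of the 2383 genes tested. On that scale 2 of the 8 genes passed 2-fold upward and 2 downward, beside 4.41% and 81.7% of genes. The part of the array level in these differences was not tested. With quantile normalization, which gives all arrays the same distribution, the ratios of Tuba1a and Stmn1 were 1.07 and 1.08.

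**Figure D4:**
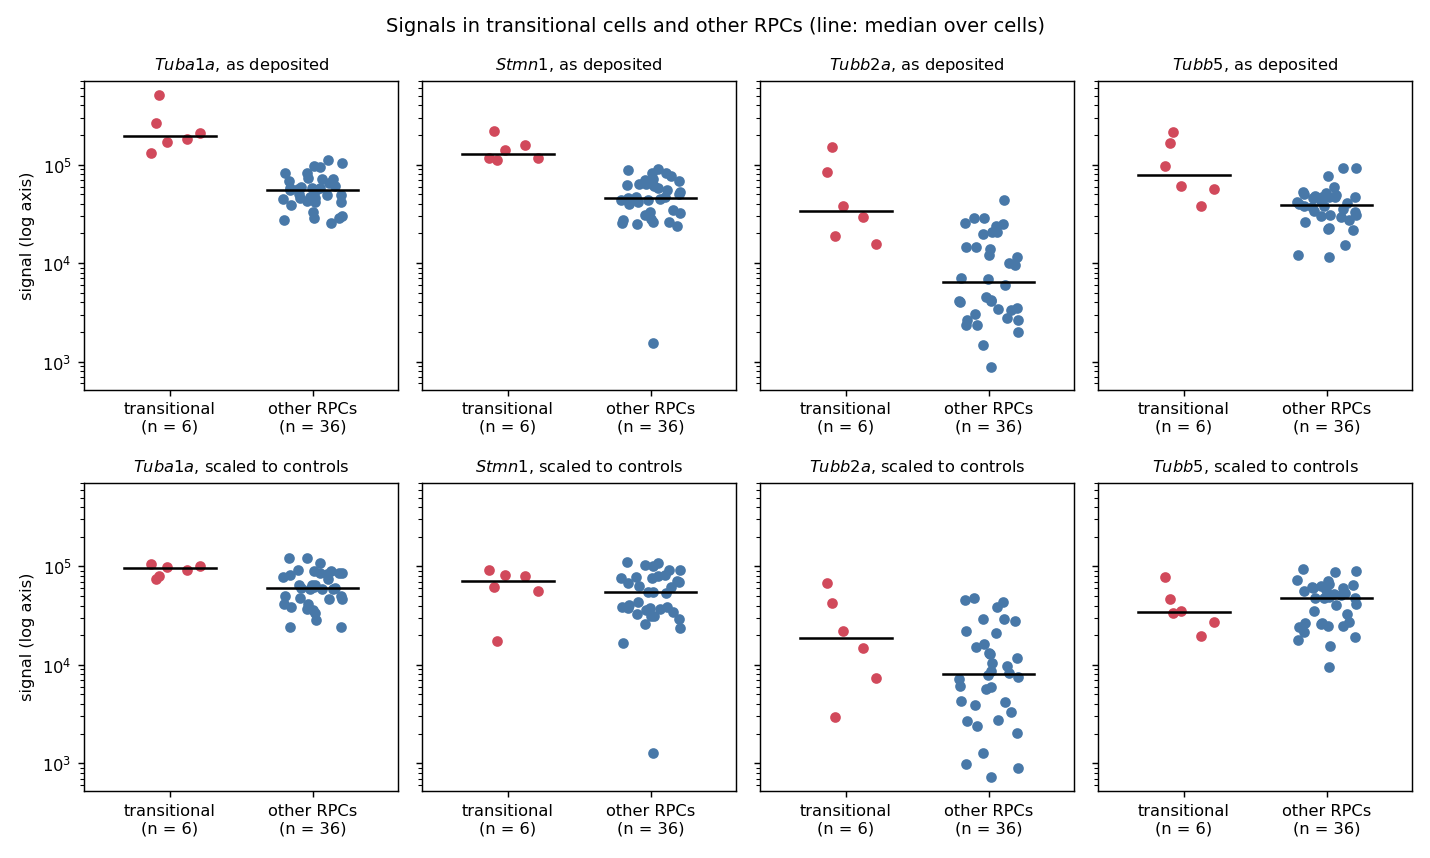
Signals (log axis, vertical) of Tuba1a, Stmn1, Tubb2a and Tubb5 in the 6 transitional cells and the 36 other RPCs, as deposited (upper row) and after bringing all arrays to 1 level of the hybridization controls (lower row). Each point is a cell and lines are medians. As deposited, the transitional cells lie above all other RPCs for Tuba1a and Stmn1, while after scaling the groups overlap for all 4 genes.

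Of the 6 transitional cells 5 had Tubb3 (83.3%, 35.9 to 99.6%), and of the 36 other RPCs 18 had it (50.0%, 32.9 to 67.1%), a difference of 33.3 points (-9.28 to 54.0). Its transitional signals were 143050 in E5, 116800 in A6, 63010 in B1, 36987 in D5, 3547 in F1 and 158 in C5. The other RPCs ranged from 10.6 to 60716 with a median of 1023. Thus 3 transitional cells lay above the highest other RPC, and P0 C5 lay below the median. Of all genes 5.71% were higher by 30 points or more in the transitional cells and 12.5% lower. Class and stage are mixed in this comparison. Within E16.5 alone Tubb3 was present in 3 of 3 transitional cells and 7 of 8 others, so that the difference over all stages cannot be read as one of class.

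Tubb2b was present in the same 5 cells, with 98375 in D5, 56219 in F1, 46229 in A6, 42431 in B1 and 19228 in E5, and not in C5 (494). Tubg1 was the opposite: C5 had 17945, the highest Tubg1 signal of all 42 cells, and the other 5 transitional cells had 236 to 902. It was present in 1 of 6 transitional cells and 21 of 36 other RPCs, a difference of -41.7 points (-61.6 to 1.17). P0 C5 was therefore the exception among the transitional cells in 3 genes of the set while sharing the high Tuba1a and Stmn1. It is also the only transitional cell of P0. Of the 13 P0 cells 9 were without Tubb3 and 4 without Tubb2b, and 10 had Tubg1. Stage and cell cannot be told apart here.

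Within E16.5 alone, where 3 transitional cells can be set beside 8 others, the medians were 209825 in the transitional cells and 49511 in the others for Tuba1a and 117633 and 43810 for Stmn1. That these cells do not overlap follows from the lack of overlap over all cells and is not a second observation. Of the 8 others 4 were on arrays with departing controls, and of the 3 transitional cells 1, so that Tubb2a, Tubb3 and Tubg1 are given for the 6 usual arrays alone, with 2 transitional cells and 4 others. There the Tubb2a medians were 117669 and 26805, a ratio of 4.39, and those of Tubb3 90019 and 30550, a ratio of 2.95. Scaled to the controls, the ratios on these 6 arrays were 1.06 for Tuba1a, 0.968 for Stmn1, 1.53 for Tubb2a and 0.834 for Tubb3, so that the directions of Stmn1 and Tubb3 turned. For Tubg1 the medians on these arrays were 389 and 267, both below 1000, a ratio of 1.45 as deposited and 0.561 scaled. The lower Tubg1 median of the transitional cells was thus not seen there in the signals as deposited.

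Of 13 markers of retinal ganglion cells measured, a median of 5 was present in the transitional cells (1 to 8) and of 1 in the other RPCs (0 to 9). Of these markers 4 (Rbpms, Isl1, Sncg and Ina) were higher by 30 points or more and 0 lower by as much, beside 5.71% and 12.5% of all genes, while Gap43 (1 of 6 and 8 of 36 cells), Pou4f1 (0 and 4) and Elavl3 (1 and 7) were in a smaller share of the transitional cells. Thy1 was at 1000 or more in none of the 42 cells. Lens markers were positive in 3 of 30 combinations of gene and cell in the transitional cells and in 7 of 180 in the others, microglia markers in 2 of 24 and 0 of 144 (Csf1r and Aif1 in 0 cells), blood markers in 4 of 18 and 8 of 108, vascular and mesenchyme markers in 5 of 36 and 28 of 216, amacrine and horizontal cell markers in 13 of 60 and 38 of 360, photoreceptor markers in 3 of 48 and 18 of 288, and pigment epithelium markers in 3 of 36 and 2 of 216. These were not spread evenly over cells. All 3 lens positives of the transitional cells were in 1 cell, and 5 of the 7 in the others were in 1 cell. The 2 microglia positives were also in 1 transitional cell. Among the 6 vascular and mesenchyme markers the pooled shares hide opposite members. Col1a2 was present in 3 of 6 transitional cells and 2 of 36 others, and Kdr in 1 of 6 and 24 of 36. Thus 1 was higher and 1 lower by 30 points or more, beside 5.71% and 12.5% of all genes. The part of all these markers in the tubulin signals was not tested.

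Of the other tubulin genes, 9 were measured and 8 were present in at least 1 cell. Tubb4b, the class IV isotype of many tissues, was present in 40 cells (median 18615), and Tuba4a in 33, 11 of 13 at P0 and 6 of 11 at E12.5 (30.1 points, -6.07 to 58.8). Tubb4a, the class IV isotype of brain, was present in 15, 6 of 13 at P0 and 1 of 11 at E12.5 (37.1 points, 0.360 to 62.9). Tuba8 was found in 3 cells, all transitional, with a highest signal of 2847. It was the 1 gene of the 9 higher by 30 points or more in the transitional cells, and 0 were lower, beside 5.71% and 12.5% of all genes. Counting the list, 2 of the 9 genes were higher by 30 points or more at P0 and 0 lower, with a median of 0 points, beside 8.58% and 2.76% of all genes.

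Of the other stathmins, which are neuronal and attached to membranes, Stmn2 was present in 19 cells, Stmn3 in 18 and Stmn4 in 3. All 6 transitional cells and 12 of the 36 other RPCs had Stmn3, a difference of 66.7 points (24.4 to 79.8). Stmn4 was present in 3 and 0 (50.0 points, 17.3 to 81.2), and Stmn2 in 3 and 16 (5.56 points, -29.5 to 40.2). Stmn1 was in every cell of both groups, so that 2 of the 4 stathmins were higher by 30 points or more and 0 lower, beside 5.71% and 12.5% of all genes.

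The chaperones and cofactors that fold tubulin (20 genes) were broadly present, in 66.3% of combinations of gene and cell. Cct2, a subunit of the ring-shaped chaperonin that folds tubulin and actin, was present in all 42 cells, Cct4 in 41 and Tcp1 in 40. At P0 70.0% of combinations were positive and at E12.5 60.9%, and 1 of the 20 genes was higher by 30 points or more, beside 8.58% of all genes. In the transitional cells 50.8% were positive and in the others 68.9%, with 0 genes higher and 4 lower by 30 points or more, beside 5.71% and 12.5% of all genes: Pfdn1 (0 of 6 and 21 of 36 cells) and Vbp1 (2 of 6 and 29 of 36), both subunits of prefoldin, which carries unfolded tubulin to the chaperonin, and the chaperonin subunits Cct7 (3 of 6 and 35 of 36) and Cct8 (3 of 6 and 33 of 36).

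Of 10 genes of the γ-tubulin ring complex and its partners, which act with Tubg1, 46.2% of combinations were positive at P0 and 28.2% at E12.5. Tubgcp3 was present in 11 of 13 cells at P0 and 3 of 11 at E12.5, 57.3 points (17.6 to 78.1), Mzt1 in 11 and 7, and Tubgcp4 in 10 and 9. Tubgcp3 was the 1 gene of the 10 to pass 30 points, beside 8.58% of all genes. Between transitional cells and other RPCs, 3 of the 10 genes were lower by 30 points or more, beside 12.5% of all genes, namely Tubgcp4 (1 of 6 and 24 of 36), Tubgcp3 (1 and 17) and Nedd1, which brings the complex to the centrosome (0 and 11).

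Enzymes that modify tubulin (14 genes) were present in 22.1% of combinations. Atat1, the acetyltransferase of α-tubulin, was present in 18 cells, the deacetylase Hdac6 in 17 and Svbp, the partner of the vasohibins, in 16. Sirt2, another deacetylase, was present in 9 of 13 cells at P0, 0 of 11 at E16.5 and 3 of 11 at E12.5, a P0 minus E12.5 difference of 42.0 points (2.21 to 67.1). In the transitional cells Hdac6 and Sirt2 were present in 0 of 6, against 17 and 14 of 36, and Agbl5, a deglutamylase, in 2 of 6 and 1 of 36. Of the 14 genes 1 was higher and 3 were lower by 30 points or more in that comparison, beside 5.71% and 12.5% of all genes.

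Microtubule proteins of neurons (13 genes) were positive in 43.2% of combinations at P0 and 25.2% at E12.5, and 3 of the genes were higher by 30 points or more, beside 8.58% of all genes. Map2, a protein of dendrites, was present in 12 of 13 cells at P0 and 4 of 11 at E12.5 (55.9 points, 17.8 to 78.1), Dpysl4 in 12 and 5 (46.9 points, 9.97 to 71.8) and Mapt, which encodes tau, in 5 and 0 (38.5 points, 5.29 to 64.5). Tubb3 over the same 2 stages was present in 4 of 13 and 5 of 11 cells. Dcx, doublecortin of migrating neurons, was found in 3 of 6 transitional cells and 4 of 36 others (38.9 points, 4.57 to 70.8). It was the 1 gene of the 13 higher by 30 points or more in that comparison, and 0 were lower, beside 5.71% and 12.5% of all genes. Over the list, 37.2% of combinations were positive in the transitional cells and 35.5% in the others. The median difference of the 13 genes was -2.78 points. Dpysl2 was present in 40 cells.

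General microtubule proteins (17 genes) were higher by 30 points or more at P0 in 4 cases and lower in 0, beside 8.58% and 2.76% of all genes, among them Mapre2 (9 of 13 and 2 of 11 cells), the polymerase Ckap5 (13 and 6) and the severing enzyme Spast (12 and 6), while Dctn1, a subunit of dynactin, was present in 5 of 13 and 7 of 11. Dynll1, a light chain of dynein, was present in 41 cells, and Mapre1 and Map7 in 32 each. In the transitional cells 0 of the 17 genes were higher by 30 points or more and 4 lower, beside 5.71% and 12.5% of all genes. Spindle proteins (16 genes) were positive in 64.4% of combinations at P0 and 50.6% at E12.5, and in 33.3% among transitional cells and 52.3% among the others. Numa1 was present in 30 cells, Prc1 in 30 and Ube2c in 26. Numa1 (1 of 6 transitional cells and 29 of 36 others), Cenpe (0 and 16), Aurka (0 and 13) and Ckap2 (1 and 18) were 4 of the 6 spindle genes lower by 30 points or more in the transitional cells, beside 12.5% of all genes. The number of genes present per cell, with medians of 2353 in the transitional cells and 3063 in the others, moved with these lists, and its part in them was not tested.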

How the data were processed

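The cDNA of each retinal cell, amplified by 35 cycles of PCR, was hybridized to an Affymetrix 430 array of mouse transcripts. The authors deposited MAS 5.0 signal values, linear intensities with a target of 500 per array. Of 45101 probe sets, 34958 had 1 gene symbol in the platform annotation, 932 had several and 9211 none, and only the first were used. Gene values, presence (1000 or more), exact and Newcombe 95% intervals and medians were computed with python 3.11.15, pandas 2.3.3 and scipy 1.17.1. The ratios of medians and the intervals were tested on simulated data, and the gene values on a small table of known values. The call of presence was not tested in this way. A difference was named at 30 points or more in share, or 2-fold or more in median signal among genes with a median of 1000 or more in either group. Depth was taken as the number of genes present per cell. Stages came from the sample labels and transitional cells from the marks in the study's display of its classification, not from the labels. Named genes were all 10 members, in each other microtubule list the 3 genes in the most cells and up to 4 that differed by 30 points or more, and the 5 genes most like Tubb3 and Stmn1. The members and lists were chosen with earlier results of these data known. Alternatives were other levels of presence, other rules for probe sets, quantile normalization, leaving out cells or arrays and, chosen after seeing the data, scaling to the hybridization controls, transitional cells within E16.5 and each probe set by itself. Promoter sequences are from RefSeq (GRCm38.p6).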

Additional observations from a re-analysis of the deposited data

Results flagged for a closer look

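In the 6 transitional cells, P0 cell C5 lay far from the other 5 in the log2 signal of 2 genes. For Tubb2b its gap to the nearest cell was 0.692 of the whole range, with a signal of 494, and for Tubg1 0.690, with a signal of 17945. The limit for 6 values is passed by about 1 in 20 groups by chance, and 16 groups of values (8 genes in the transitional cells and in the E13.5 cells) were examined, so that these 2 are given as values only.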

How the results depend on the processing

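No paired analysis was possible because no test was made and cells of different stages share no replicate. Over the 8 genes, 80.1% of combinations of gene and cell were positive, and 63.4% at a level of presence of 5000, the only summary value to move by more than the spread over cells in the alternatives tried. Of the 24 ratios of single genes 12 turned direction in 1 or more alternatives. Of these, 2 were 2-fold or more as deposited: the E16.5 over E12.5 ratio of Tubb6, 2.44, was 0.854 with quantile normalization, and that of Tubb2a, 2.61, was 0.934 without the transitional cells. The Tubb6 ratio was 9.02 without the arrays with departing controls and 4.15 to 4.34 without any 1 of E16.5 E8, F1, F4, J1, J2 or J4. The other 10 were under 2-fold. Among them were Tubb2b, E16.5 over E12.5 (0.507, and 2.03 without the departing arrays), Stmn1, E16.5 over E12.5 (0.775, and 1.66 scaled to the controls) and P0 over E12.5 (0.734, and 1.47 scaled), Tubb3, P0 over E12.5 (0.881, and 1.72 scaled), Tubb5, P0 over E12.5 (0.992, and 1.86 scaled) and transitional over other RPCs (1.99, and 0.714 scaled), and Tubg1, E16.5 over E12.5 (1.91, and 0.943 without the departing arrays). The causes were not tested. Leaving out 1 cell at a time, the percent of positive combinations lay between 79.6 and 80.8, its P0 minus E12.5 difference between 12.1 and 17.1 points, its transitional minus other difference between 0.139 and 2.64 points, the share of cells with a broad isotype and without Tubb3 between 43.9 and 46.3%, and the median ratio over the genes between 0.936 and 1.26 (P0 over E12.5), 1.25 and 1.91 (E16.5 over E12.5) and 2.90 and 3.41 (transitional over other RPCs). Depth limits the rest: a stage has at most 13 cells, and a signal under 1000 is not an absence.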
